A study of Mus musculus with 10 samples.

Results

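The fibroblast-rich stroma of the mouse prostate was compared with the basal layer of its epithelium, in the 4 libraries of a set of 10 whose labels read Stromal (2 libraries) or Basal (2 libraries). All 10 libraries came from sorted prostate cells of C57BL/6 mice aged 8 to 12 weeks, with no allele or treatment added by the labels. Stromal cells were sorted as Lin-/CD24-/CD49f- and basal cells as Lin-/CD24low/CD49fhigh, where Lin- means negative for the lineage markers of the sort. The remaining libraries, 3 of Sca-1- luminal and 3 of Sca-1+ luminal cells, entered the model to help estimate the spread between libraries, and counted toward the minimum level at which a gene was tested. The growth protocol given for every library also describes culture of dissociated cells on collagen I plates in serum with dihydrotestosterone, and the labels do not say whether the sorted cells went through it. Separate mice and pooled animals are likewise not distinguished, so p-values measure only the spread within groups over all 10 libraries, which may be technical. Each standard error (SE) below rests on this pooled spread, luminal libraries included, and not on the stromal and basal libraries alone.

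In the adult prostate a basal layer of cuboidal cells lies on the basement membrane beneath the secretory luminal cells. Basal cells anchor to that membrane through hemidesmosomes, carry keratins 5 and 14, and depend on the transcription factor p63. The stroma outside the membrane holds fibroblasts and smooth muscle, which make the fibrillar matrix and send growth factors to the epithelium. Several of these exchanges run one way, with a ligand made in one compartment and its receptor in the other.

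Expression is given in FPKM, that is, fragments per kilobase scaled to library size, summed over the transcripts of a gene, so levels of different genes can be compared per length. Depth, estimated from the spacing of low FPKM values, was 22.6 to 24.6 M mapped fragments in the 4 libraries (M for 1e6). Over genes, the log2 levels of the 2 basal libraries correlated at r = 0.976 and those of the 2 stromal libraries at r = 0.963, against 0.754 to 0.786 between a stromal and a basal library. Genes are not independent replicates, and these are descriptions.

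The 4 cell type markers given for this comparison followed the library labels. Col1a1, a chain of type I collagen (mm10 chr11:94936270-94951856), measured 317 and 314 FPKM in the stromal libraries and 7.16 and 8.77 FPKM in the basal libraries. Dpt, the matrix protein dermatopontin (chr1:164796732-164824266), measured 318 and 181 FPKM against 0.559 and 1.73 FPKM. Both were far above the basal levels in each stromal library. Krt5, a basal keratin (chr15:101707070-101712891), ran the other way, at 1.31 and 6.63 FPKM in stromal and 382 and 535 FPKM in basal libraries. Cdh1, the epithelial cadherin (chr8:106603368-106670246), measured 4.66 and 19.5 FPKM in stromal and 664 and 758 FPKM in basal libraries. The groups overlapped for none of the 4 genes, as for 34.3% of all genes tested with stroma higher and 31.0% with stroma lower.

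The genes of the sorting antigens CD49f and CD24 followed the gates. Itga6, which encodes CD49f, was at 1.15 and 2.99 FPKM in stromal and 122 and 140 FPKM in basal libraries. Cd24a was at 25.2 and 57.0 FPKM in stromal libraries, hence still detected, and at 226 and 199 FPKM in basal libraries. Its log2 difference of -2.45 had an adjusted p of 0.0301, which rose to as much as 0.19 when any 1 of the 4 libraries was left out, and the call was also lost without the filter on low values. Ly6a, the gene of Sca-1, was abundant on both sides, at 1290.2 and 1930.3 FPKM in stromal and 421 and 473 FPKM in basal libraries, a log2 difference of 1.82 ± 0.69 (SE) that did not pass the test (adjusted p = 0.0893) but did in the fit of the 4 libraries alone (0.0291) and without Sca-1+ luminal library 3.

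RNA of other cell types was present to different degrees. Summed FPKM of 13 basal markers was 46.6 and 213 in the stromal libraries against 8729 and 10193 in the basal ones, and that of 14 general epithelial markers was 118 and 509 against 4151 and 5944. Of these lists, 10 of 13 and 11 of 14 genes reached 1 FPKM in a stromal library. By contrast, 11 secretory markers of luminal cells summed to 3187 and 6180 FPKM in stromal and 2643 and 3807 FPKM in basal libraries. Among the 12 basal markers tested 11 were lower in stroma (10 to 12 with 1 library left out), and all 14 general epithelial markers were (7 to 13). Stromal library 2 was thus the one with more epithelial RNA. With that library left out 675 genes and 13 of the 14 general epithelial markers were lower in stroma, and with stromal library 1 left out 593 and 7. Among the 1132 genes called lower in stroma, 63.3% were higher in stromal library 2 than in library 1, close to the 61.5% of all genes tested. Conversely, 14 fibroblast markers summed to 924 and 775 FPKM in the basal libraries and to 14846 and 12561 FPKM in the stromal ones, with 12 of the 14 at 1 FPKM or more in a basal library. In bulk libraries fewer cells of a type and less RNA per cell cannot be told apart.

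**Figure D1:**
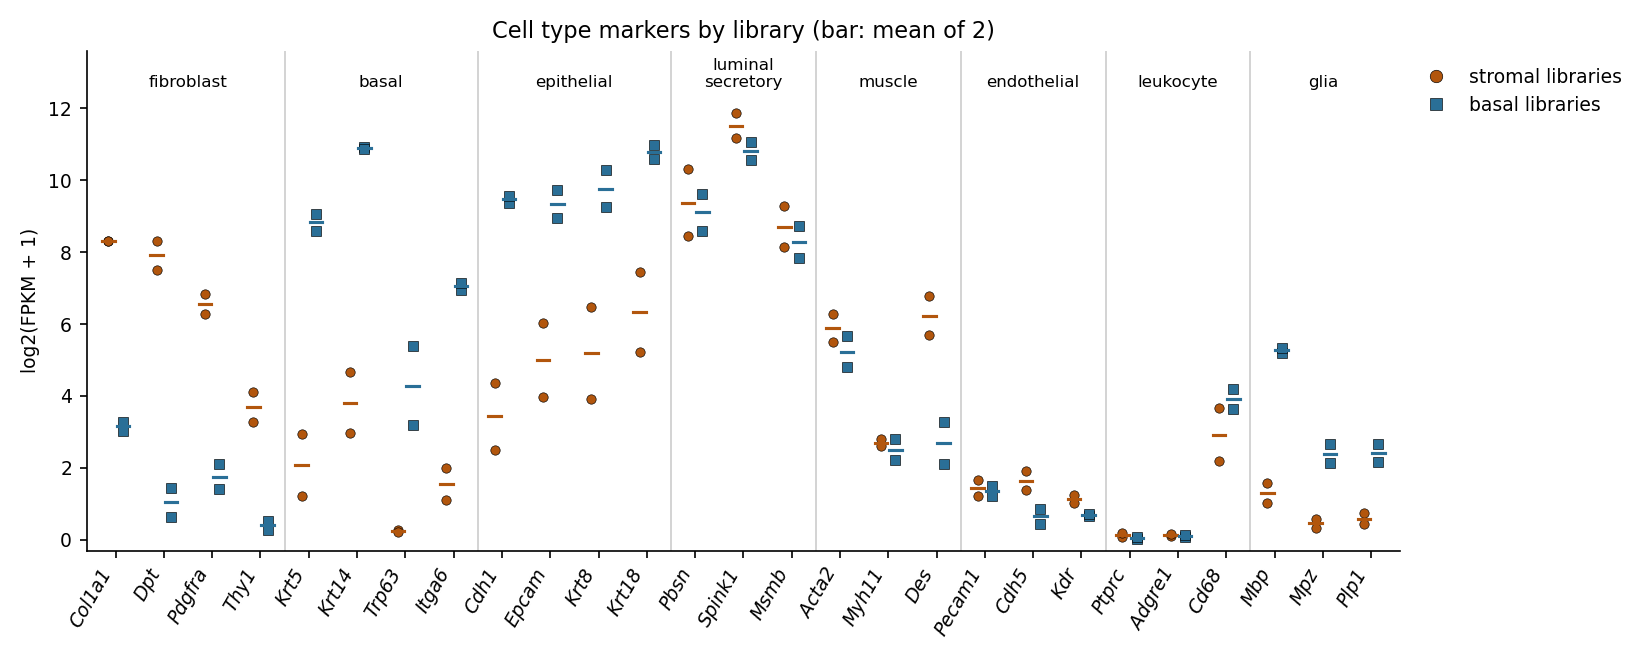
Levels of cell type markers in each stromal library (circles) and basal library (squares), as log2(FPKM + 1), with bars at the mean of 2 libraries. Col1a1 and Dpt are higher in both stromal libraries, Krt5, Cdh1 and Itga6 are higher in both basal libraries, and the plotted secretory, endothelial and leukocyte markers lie closer together.

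Of 12409 genes tested with limma, 2795 (22.5%) differed at an adjusted p below 0.05, the threshold used throughout for calling a gene. In the stromal libraries 1663 genes (13.4%) were higher and 1132 (9.12%) lower, shares that are the background for each list count below. Of the called genes, 1285 differed by at least 2 on the log2 scale, here always log2(FPKM + 1). With quantile normalization the share of calls that were higher in stroma fell from 59.5% to 52.3%, and with median-of-ratios scaling it was 57.9%. Leaving out 1 of the 4 libraries reduced the counts to between 584 and 910 higher and between 537 and 675 lower, so each list below is given with the range of its count over these 4 fits. The luminal libraries in the model mattered the other way: of 248 named or listed genes that were tested and not called, 52 were called when the 4 libraries were fitted alone and 54 when Sca-1+ luminal library 3 was dropped, against at most 9 under any other setting.

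**Figure D2:**
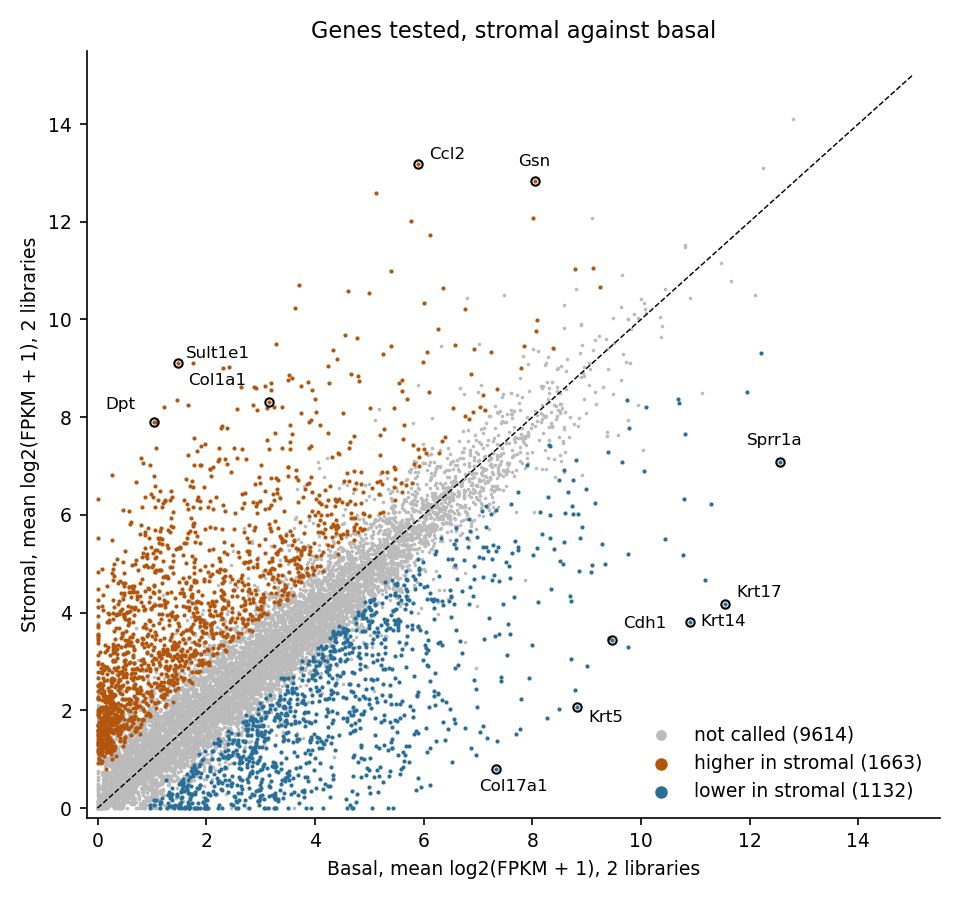
Mean level of each tested gene in the 2 basal libraries (x axis) and the 2 stromal libraries (y axis), both as log2(FPKM + 1), with the 1663 genes called higher and the 1132 called lower in stroma coloured. The named genes of largest difference lie far from the diagonal on both sides.

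Secreted chemokines, a complement component and a matrix proteoglycan were among the 12 largest stromal excesses. Ccl2, a chemokine that draws monocytes, measured 9476 and 9084 FPKM in stromal and 37.6 and 91.5 FPKM in basal libraries, a mean 144-fold higher in stroma (log2 difference 7.28 ± 1.11 SE, adjusted p = 0.00233). Its neighbour Ccl7, another monocyte chemokine, measured 6667 and 5623 FPKM against 23.2 and 48.8 FPKM (7.46 ± 1.03, adjusted p = 0.00166). These 2 chemokine RNAs exceeded that of Col1a1 in each stromal library. C7, a terminal complement component, was at 451 and 195 FPKM against 1.31 and 1.34 FPKM, and Ptx3, a soluble pattern-recognition protein, at 423 and 249 FPKM against 1.22 and 2.45 FPKM. Lum, the keratan sulfate proteoglycan lumican, was at 368 and 154 FPKM in stromal libraries and close to 1 FPKM in both basal ones. The log2 differences of these 3 genes were 7.0, 6.88 and 6.82.

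Other genes of this rank have different known roles. Sult1e1, which sulfates oestrogens, measured 1052 and 288 FPKM against 2.04 and 1.55 FPKM, the widest difference of all (7.63 ± 1.18, adjusted p = 0.00253). Gpx3, the secreted glutathione peroxidase, measured 1767 and 818 FPKM against 11.2 and 11.8 FPKM. Thbd, the thrombin receptor thrombomodulin, was at 676 and 403 FPKM against 3.34 and 5.55 FPKM. Stromal library 1 held the higher level of these 3 genes, by over 3-fold only for Sult1e1, and each stromal value exceeded each basal one. Gfpt2, Tnfaip6, Dpt and Ifi205 complete the 12 largest excesses, with log2 differences between 6.71 and 7.36.

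Keratins and adhesion proteins were among the 12 largest deficits in stroma. Krt17, a keratin of basal and stressed epithelium, measured 2229 and 4062 FPKM in basal and 5.90 and 46.5 FPKM in stromal libraries (-7.38 ± 1.41), and its adjusted p of 0.00578 rose to 0.0521 without stromal library 1. Krt14, the partner of keratin 5, measured 1956 and 1866 FPKM in basal against 6.89 and 24.2 FPKM in stromal libraries (-7.08 ± 1.20, adjusted p = 0.00352). Krt15 measured 2633 and 2054 FPKM against 14.1 and 41.7 FPKM. Stromal library 2 had more of each keratin than stromal library 1, and neither came near the basal levels. Sfn, the epithelial 14-3-3 protein sigma, was at 863 and 869 FPKM in basal and 3.97 and 18.2 FPKM in stromal libraries, and Cldn1, a claudin of tight junctions, at 461 and 425 FPKM against 2.76 and 6.69 FPKM. Cdcp1, Itga3, Col17a1, Krt5, Lgals7 and Sprr2h also belonged to this set, with log2 differences between -6.16 and -6.75.

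Of 14 interstitial collagen genes 10 were higher in stroma and none lower, with a median log2 difference of 4.00 beside 0.02 over all genes tested; the count was 5 to 7 with 1 library left out. Col3a1, the type III collagen chain, measured 567 and 383 FPKM in stromal and 9.96 and 10.9 FPKM in basal libraries (5.35 ± 1.00, adjusted p = 0.00539). Col1a2, the second chain of type I collagen, measured 361 and 388 FPKM against 6.82 and 9.78 FPKM, and Col6a1, a chain of beaded-filament collagen, 218 and 221 FPKM against 3.49 and 5.11 FPKM. Col1a1 itself had a log2 difference of 5.15 ± 1.01 (adjusted p = 0.00668), which became 0.0502 without basal library 1. Every one of these basal values was below 12 FPKM. Col12a1, at 11.8 and 10.1 against 7.96 and 5.83 FPKM, and Col16a1, at 43.3 and 52.2 against 55.9 and 42.8 FPKM, were at similar levels on both sides and were not called.

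Proteoglycans and elastic fibre genes gave a similar count, with 17 of 25 higher in stroma, none lower, a median of 3.74, and 10 to 14 called with 1 library left out. Eln, which encodes elastin, measured 75.2 and 80.2 FPKM in stromal and 0.654 and 1.82 FPKM in basal libraries (5.19 ± 0.61, adjusted p = 0.000836). Mfap5 and Mfap4, microfibril proteins, had log2 differences of 6.58 and 5.80, and Fbln1, the matrix protein fibulin 1, one of 5.50. Bgn, the small proteoglycan biglycan, measured 333 and 599 FPKM against 8.83 and 13.4 FPKM. The most abundant proteoglycan RNA, Dcn (decorin), measured 5091 and 3639 FPKM in stromal and 655 and 459 FPKM in basal libraries. Its groups did not overlap, as for 34.3% of all genes tested with stroma higher. Dcn did not pass the test (2.97 ± 0.97, limma adjusted p = 0.0538). It was called when the 4 libraries were fitted alone and when Sca-1+ luminal library 3 was dropped (0.000541), and in each of these fits 23 of the 25 genes were higher in stroma and 1 was lower. Fn1 (fibronectin), at 79.5 and 23.5 against 6.12 and 6.24 FPKM, was not called either (adjusted p = 0.132), and was called in the same fits (as low as 0.0147).

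Of 14 fibroblast markers 13 were higher in stroma and none lower (median 4.98, 10 to 12 with 1 library left out), Dcn being the exception, and all 14 were called with the 4 libraries fitted alone or without Sca-1+ luminal library 3. Pi16 and Dpp4, which mark adventitial fibroblasts, measured 165 and 107 FPKM against 0.517 and 1.09 FPKM, and 20.7 and 6.59 FPKM against 1.01 and 0.700 FPKM. Cd34, also found on fibroblasts of the connective tissue, measured 177 and 124 FPKM against 1.75 and 2.67 FPKM. Gsn, the actin-severing protein gelsolin, was at 7505 and 7196 FPKM in stromal libraries, and at 245 and 283 FPKM in basal ones. Matrix proteases and their inhibitors added 11 higher and no lower of 18 tested (4 to 6 with 1 library left out). Mmp2, gelatinase A, measured 315 and 504 FPKM against 12.6 and 12.1 FPKM, and Timp2, its inhibitor, 660.4 and 467 FPKM against 77.9 and 49.5 FPKM. Mmp14, which activates the Mmp2 protein at the cell surface, was at 192 and 296 FPKM in stromal and 144 and 221 FPKM in basal libraries, which overlapped.

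The 2 sides of the basement membrane differed by component. In a list of 9 hemidesmosome and laminin-332 genes 7 were lower in stroma and none higher, with a median of -5.49, and 7 were lower in each fit that left out a library. Lama3 and Lamb3, chains of laminin-332, had log2 differences of -5.28 ± 0.32 and -5.66 ± 0.33. Col17a1, the transmembrane collagen of hemidesmosomes, measured 157 and 161 FPKM in basal against 0.484 and 1.05 FPKM in stromal libraries, and Itgb4, the integrin partner of CD49f, 62.6 and 75.6 FPKM against 0 and 0.929 FPKM. Plec and Cd151, which also serve hemidesmosomes, were not called, and plectin spread from 27.9 to 131 FPKM between the basal libraries alone.

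Among 17 other basement membrane genes 8 were higher in stroma and 3 lower (2 to 5 and 1 to 3 with 1 library left out), and 12 were higher with the 4 libraries fitted alone or without Sca-1+ luminal library 3. Lama4, a laminin chain of mesenchymal cells, measured 65.5 and 42.7 FPKM in stromal and 1.36 and 1.90 FPKM in basal libraries (4.36 ± 0.84, adjusted p = 0.00591). Col15a1, a collagen of the membrane's stromal face, measured 28.8 and 40.6 FPKM against 0.541 and 1.04 FPKM. Agrn, the proteoglycan agrin, was lower in stroma, at 2.78 and 5.33 FPKM against 32.0 and 25.4 FPKM. Lama5, an epithelial laminin chain, was at 0.690 and 1.43 FPKM in stromal and 30.7 and 32.0 FPKM in basal libraries, with an adjusted p of 0.00675 that rose to 0.05 without stromal library 1. Col4a1, Col4a2, Lamc1 and Hspg2, which make up the common core of basement membranes, were not called, although both collagen chains passed in those fits (as low as 0.0206 and 0.0183). Of 13 integrins 2 were higher in stroma and 4 lower (0 to 1 and 3 to 4). Over all genes tested 13.4% were higher and 9.12% lower. Itga2, Itga3 and Itgb6, receptors for collagen, for laminin and for fibronectin and latent TGF-beta, had log2 differences of -4.14, -6.43 and -5.74. Itgb1, the shared beta chain, measured 247 and 203 FPKM in stromal and 459 and 458 FPKM in basal libraries. It did not pass the test (limma adjusted p = 0.0626), but did with the 4 libraries fitted alone or without Sca-1+ luminal library 3 (as low as 0.0324).

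Of 12 cadherin and desmosome genes 9 were lower and 1 higher (7 to 9 and 0 with 1 library left out), and of 14 tight junction genes 9 were lower and none higher (6 to 8). Perp, a desmosome-associated membrane protein, measured 433 and 407 FPKM in basal and 13.1 and 23.9 FPKM in stromal libraries (-4.49 ± 0.34, adjusted p = 0.000141). Pkp1, the desmosomal plaque protein plakophilin 1, measured 28.2 and 24.2 FPKM against 0.0665 and 0.123 FPKM, and F11r, the junctional adhesion molecule A, 168 and 176 FPKM against 4.11 and 6.23 FPKM. All of these basal values were above the stromal ones. The 1 gene of these lists that was higher in stroma was Cdh11, a mesenchymal cadherin, at 33.2 and 37.0 FPKM against 1.79 and 1.47 FPKM, whose adjusted p of 0.00933 rose to as much as 0.0626 when any 1 library was left out. Of 15 keratins 12 were lower in stroma and none higher (7 to 11). Besides the basal keratins they included the luminal pair Krt8 and Krt18, at 607 and 1234 FPKM and at 1554 and 2004 FPKM in the basal libraries. Krt8 was at 14.1 and 88.1 FPKM in stroma and lost its call without stromal library 1 and without either basal library (adjusted p up to 0.119), whereas Krt18, at 36.4 and 173 FPKM, kept it.

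Transcription factors divided along the same line. Of 19 mesenchymal factors tested 17 were higher in stroma and 1 lower, with a median of 2.73 (8 to 12 and 0 to 1 with 1 library left out). Tcf21, a factor of visceral fibroblasts, had the highest stromal level, 358 and 420.3 FPKM against 4.70 and 8.94 FPKM in basal libraries (5.69 ± 0.90, adjusted p = 0.00268). Osr2, an odd-skipped factor of connective tissue, measured 47.7 and 41.7 FPKM against 1.29 and 1.09 FPKM, and Prrx1, a homeobox factor of limb and fibroblast mesenchyme, 24.4 and 22.0 FPKM against 0.223 and 0.562 FPKM. Snai1, the repressor Snail, was at 12.3 and 11.4 FPKM in stromal and 0.274 and 0.257 FPKM in basal libraries. Its relative Snai2 (Slug) was the 1 gene of the list that was lower in stroma, at 4.18 and 1.35 FPKM against 55.9 and 12.7 FPKM (-3.00 ± 0.72, adjusted p = 0.0158), and its call was lost without stromal library 2, without basal library 1 and in the fit of the 4 libraries alone (adjusted p up to 0.12).

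Of 18 epithelial transcription factors 11 were lower in stroma and 1, Pitx1, was higher (7 to 9 and 0 with 1 library left out). Trp63, which encodes p63, measured 40.7 and 8.10 FPKM in the basal libraries, a 5-fold spread, and 0.200 and 0.153 FPKM in the stromal libraries (-4.05 ± 0.58, adjusted p = 0.00181). Foxa1, a pioneer factor of prostate epithelium, measured 155 and 98.6 FPKM against 3.23 and 5.98 FPKM. Ovol1, which represses mesenchymal genes in epithelia, was at 28.0 and 27.5 FPKM in basal and 0.241 and 0.967 FPKM in stromal libraries. Esrp1 and Esrp2, the epithelial splicing regulators, had log2 differences of -2.53 and -3.67. Pitx1 was at 1.76 and 1.70 FPKM in stromal and 0 and 0.0395 FPKM in basal libraries, and its adjusted p of 0.0265 rose to as much as 0.117 when any 1 library was left out. Among 12 Hox genes 2 were higher in stroma, Hoxa10 and Hoxa11 (1 with 1 library left out), and only Hoxa11 kept its call without each library in turn (Hoxa10 up to 0.168). This Hox count was near the 13.4% of all genes tested that were higher in stroma. Hoxb13 was at 6.54 and 9.78 FPKM in stromal and 20.6 and 8.72 FPKM in basal libraries, which overlapped.

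**Figure D3:**
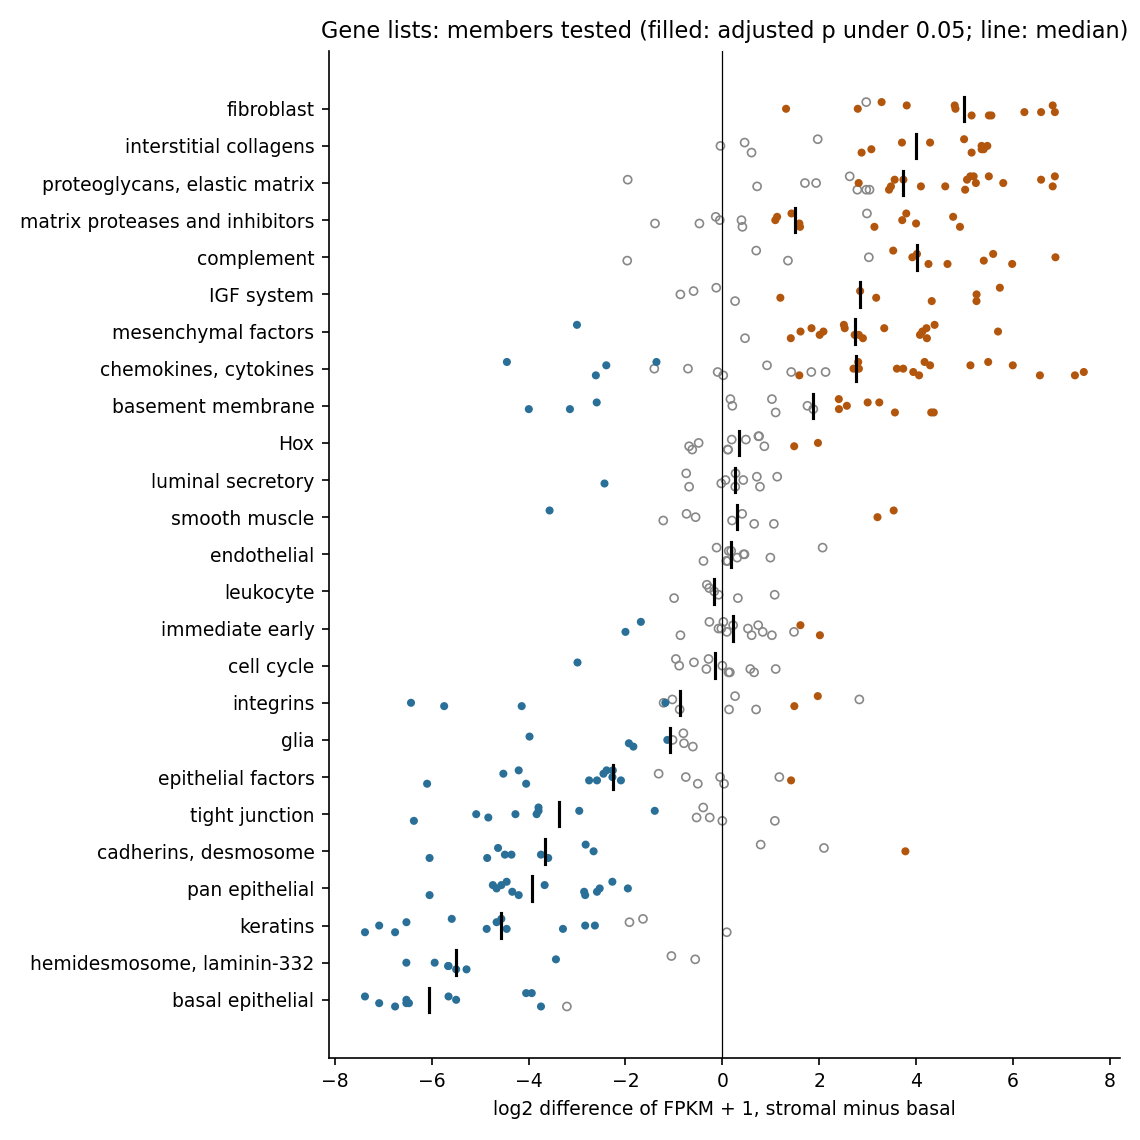
Log2 difference, stromal minus basal, of every tested gene of the main lists (filled points called, open points not called), with a line at each median. Hemidesmosome and keratin genes lie mostly below 0, and collagens, matrix and complement genes mostly above it.

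Hedgehog signalling runs from an epithelial ligand to receptors on stromal cells, whose target genes include Gli1 and Hhip. Shh, the ligand, measured 13.9 and 10.5 FPKM in basal and 0.0330 and 0.108 FPKM in stromal libraries (-3.61 ± 0.49, adjusted p = 0.0016). Gli1, the transcription factor that is also a target, measured 4.64 and 6.71 FPKM in stromal and 0.279 and 0.308 FPKM in basal libraries (2.35 ± 0.42, adjusted p = 0.00459). Ligand and target differed in opposite directions with no overlap of groups. Groups also did not overlap for 34.3% of all genes tested with stroma higher and 31.0% with stroma lower. Hhip, the decoy receptor, and Gas1, a co-receptor, were also higher in stroma, but both lost their calls when any 1 library was left out, and Gas1 also under 3 other settings (adjusted p up to 0.0942 and 0.221). Ptch1, the receptor and a target, at 4.52 and 7.93 against 3.59 and 2.24 FPKM, and Smo, at 8.34 and 8.17 against 4.68 and 3.94 FPKM, were not called (adjusted p = 0.109 and 0.0605), though Smo was with median-of-ratios scaling (0.048). In all, 3 of 10 hedgehog genes were higher in stroma and 1 lower (1 and 1 with 1 library left out).

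Fgf7, the keratinocyte growth factor, measured 39.4 and 18.6 FPKM in stromal and 0.545 and 0.269 FPKM in basal libraries (4.33 ± 0.74, adjusted p = 0.00369). Fgf2 measured 25.5 and 15.9 FPKM against 0.260 and 0.453 FPKM, and Fgf18 17.5 and 12.6 FPKM against 0.189 and 0.0998 FPKM. These 3 ligands were higher in both stromal libraries. Fgf10, which acts on the same receptor form as Fgf7, was at 5.64 and 2.59 FPKM against 0.0961 and 0.0609 FPKM, with a call lost without stromal library 1 and without either basal library (adjusted p from 0.0222 to as much as 0.145). Fgf1, which binds all FGF receptors, went the other way, at 84.0 and 51.6 FPKM in basal and 5.33 and 8.27 FPKM in stromal libraries (-3.13 ± 0.32, adjusted p = 0.000395). Fgfr1, a receptor of Fgf2, measured 180 and 181 FPKM in stromal and 22.4 and 25.7 FPKM in basal libraries, with an adjusted p of 0.0499 that was lost when any 1 library was left out and under 5 other settings (up to 0.18). In all, 5 of 14 FGF genes were higher in stroma and 3 lower (3 to 4 and 3 with 1 library left out).

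Fgfr2 (chr7:130162451-130266808, minus strand), the receptor of Fgf7 and Fgf10, measured 66.6 and 33.8 FPKM in basal and 4.94 and 2.56 FPKM in stromal libraries (-3.40 ± 0.43, adjusted p = 0.00124). Alternative splicing changes an immunoglobulin domain that binds the ligand, and exon IIIb gives the form that binds Fgf7 and Fgf10. This exon is shown because the libraries separated by it; capitals mark the exon and lower case the 15 bases of the neighbouring exons on each side, read 5′ to 3′ from GENCODE M21 transcripts (mm10). Exon IIIb lies at chr7:130199758-130199905 (148 nt).
Fgfr2 IIIb: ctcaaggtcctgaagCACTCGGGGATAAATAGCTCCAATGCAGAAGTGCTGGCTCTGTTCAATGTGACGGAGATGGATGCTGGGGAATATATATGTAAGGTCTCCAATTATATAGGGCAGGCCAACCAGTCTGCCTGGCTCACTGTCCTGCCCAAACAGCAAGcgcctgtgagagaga

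Transcripts were assigned to this form by matching the span and length of each deposited transcript to chains of annotated exons. The 4 transcripts with exon IIIb summed to 66.6 and 33.8 FPKM in the basal libraries, all of their Fgfr2 signal, and to 0.677 and 0 FPKM in the stromal libraries, 13.7% and 0% of theirs. Over transcripts, limma called 14.6% of 18331, with 8.3% higher and 6.33% lower in stroma. Of the IIIb transcripts, that of 3913 nt (29.8 and 13.9 FPKM in basal libraries) and that of 4856 nt (7.50 and 8.05 FPKM) were lower in stroma and stayed so without each library in turn (adjusted p = 0.00282 and 0.00089). The 4180-nt IIIb transcript was called at 0.0147, a call that was lost when any 1 library was left out (adjusted p up to 0.104). The 3835-nt IIIb transcript was at 9.48 and 0 FPKM in basal libraries and was not called (limma adjusted p = 0.385). Of transcripts not assigned to IIIb, that of 4847 nt was called higher in stroma (1.64 and 0.976 FPKM, adjusted p = 0.0204). Its call was lost without stromal library 1 and without either basal library. That of 4177 nt was not called (0.247). The share that Cufflinks gives to transcripts differing by 1 exon is an estimate, and a value of 0 may reflect that estimate.

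Of 16 genes of the PDGF, VEGF, HGF and Kit families, 5 were higher in stroma and 3 lower (1 to 2 and 3 to 4 with 1 library left out). Met, the receptor of hepatocyte growth factor, measured 42.3 and 40.9 FPKM in basal and 1.39 and 1.31 FPKM in stromal libraries (-4.18 ± 0.46, adjusted p = 0.000564). Its ligand Hgf measured 13 and 15.6 FPKM in stromal and 2.92 and 1.96 FPKM in basal libraries (2.16 ± 0.53, adjusted p = 0.0169), a call lost when any 1 library was left out and with a pseudocount of 0.1 (up to 0.111). For PDGF the layout was inverted, with ligand in basal and receptor in stromal libraries. Pdgfa was at 77.1 and 78.1 FPKM in basal against 9.46 and 9.52 FPKM in stromal libraries, and Pdgfb at 33.2 and 48.2 FPKM against 0.371 and 0.790 FPKM (-4.71 ± 0.43, adjusted p = 0.00025). Pdgfrb, the receptor that binds PDGF-BB and PDGF-DD, was at 22.6 and 35.8 FPKM in stromal against 0.846 and 1.4 FPKM in basal libraries. Pdgfra was at 77.4 and 114 FPKM against 1.65 and 3.31 FPKM, with a call lost without stromal library 2 and without basal library 1 (adjusted p from 0.00979 to as much as 0.0708). Pdgfd was an exception among the ligands, at 21.2 and 17.4 FPKM in stromal and 0.569 and 0.725 FPKM in basal libraries.

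Of 12 EGF-family genes 4 were lower in stroma and none higher (3 to 4 with 1 library left out); the lower count was 7 with quantile normalization and 9 without Sca-1+ luminal library 3. Hbegf, the heparin-binding ligand, measured 521 and 565 FPKM in basal and 24.4 and 30.8 FPKM in stromal libraries (-4.26 ± 0.52, adjusted p = 0.00108), and Tgfa 78.2 and 54.4 FPKM against 2.42 and 1.85 FPKM. Their receptor Egfr was expressed on both sides, at 132 and 125 FPKM in basal and 89.0 and 68.6 FPKM in stromal libraries, and was not called (adjusted p = 0.296). Jag2 and Dll1, ligands of Notch receptors, measured 38.2 and 17.9 FPKM and 53.4 and 32.9 FPKM in basal libraries, against at most 2.11 FPKM in stroma (-4.48 ± 0.39 and -4.02 ± 0.39). Notch1 was at 13.5 and 9.60 FPKM in basal and 2.48 and 2.40 FPKM in stromal libraries. Hes1, a common Notch target, was at 83.4 and 62.6 FPKM in stromal and 81.9 and 68.1 FPKM in basal libraries, which overlapped. Of 11 Notch genes 4 were lower in stroma and 1 higher (3 and 0 with 1 library left out).

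Wnt genes were higher in stroma more often than lower, with 5 of 10 ligands and 8 of 15 modulators and response genes higher, and 1 and 2 lower. With 1 library left out the counts were 2 to 4 and 4 to 6 higher, and 1 and 0 to 2 lower. Wnt2 measured 36.5 and 55.2 FPKM in stromal and 0.968 and 0.905 FPKM in basal libraries (4.57 ± 0.76, adjusted p = 0.00335). Wnt7b was the 1 ligand that was lower in stroma, at 0.347 and 0.585 FPKM against 15.1 and 12.2 FPKM (-3.32 ± 0.61, adjusted p = 0.0051). Wif1 and Sfrp2 encode secreted Wnt inhibitors. Wif1 measured 315 and 569 FPKM against 11.5 and 16.2 FPKM, and Sfrp2 66.9 and 64.6 FPKM against 1.85 and 1.41 FPKM. Lgr5, a receptor for R-spondins, was at 12.9 and 7.54 FPKM in stromal and 0.586 and 0.365 FPKM in basal libraries (2.89 ± 0.54, adjusted p = 0.00545). Axin2, a general Wnt target, was at 1.63 and 1.11 FPKM against 2.84 and 0.536 FPKM, with overlapping groups.

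Of 24 TGF-beta and BMP genes 9 were higher in stroma and 2 lower (2 to 4 and 1 to 2 with 1 library left out). Gdf10, a BMP-like ligand, measured 104 and 75.2 FPKM in stromal and 1.44 and 1.67 FPKM in basal libraries (5.13 ± 0.71, adjusted p = 0.00166), and Nog, the BMP antagonist noggin, 2.68 and 3.15 FPKM against 0.245 and 0.129 FPKM. Bmp3 was lower in stroma, at 0.168 and 0.106 FPKM against 6.39 and 12.7 FPKM. Igf1, the stromal insulin-like growth factor, measured 72.0 and 45.4 FPKM against 0.397 and 0.682 FPKM (5.25 ± 0.84, adjusted p = 0.00285). Of 11 IGF genes 7 were higher in stroma and none lower (5 to 6). Igfbp7, a secreted IGF-binding protein, was the most abundant, at 1122 and 1473 FPKM against 52.5 and 76.3 FPKM, and Igfbp6 and Igfbp4, which bind the ligands in solution, differed by 5.73 and 5.25. The receptor Igf1r was at 1.90 and 2.16 FPKM in stromal and 4.2 and 4.84 FPKM in basal libraries and was not called (adjusted p = 0.102), except without Sca-1+ luminal library 3 (0.0348).

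**Figure D4:**
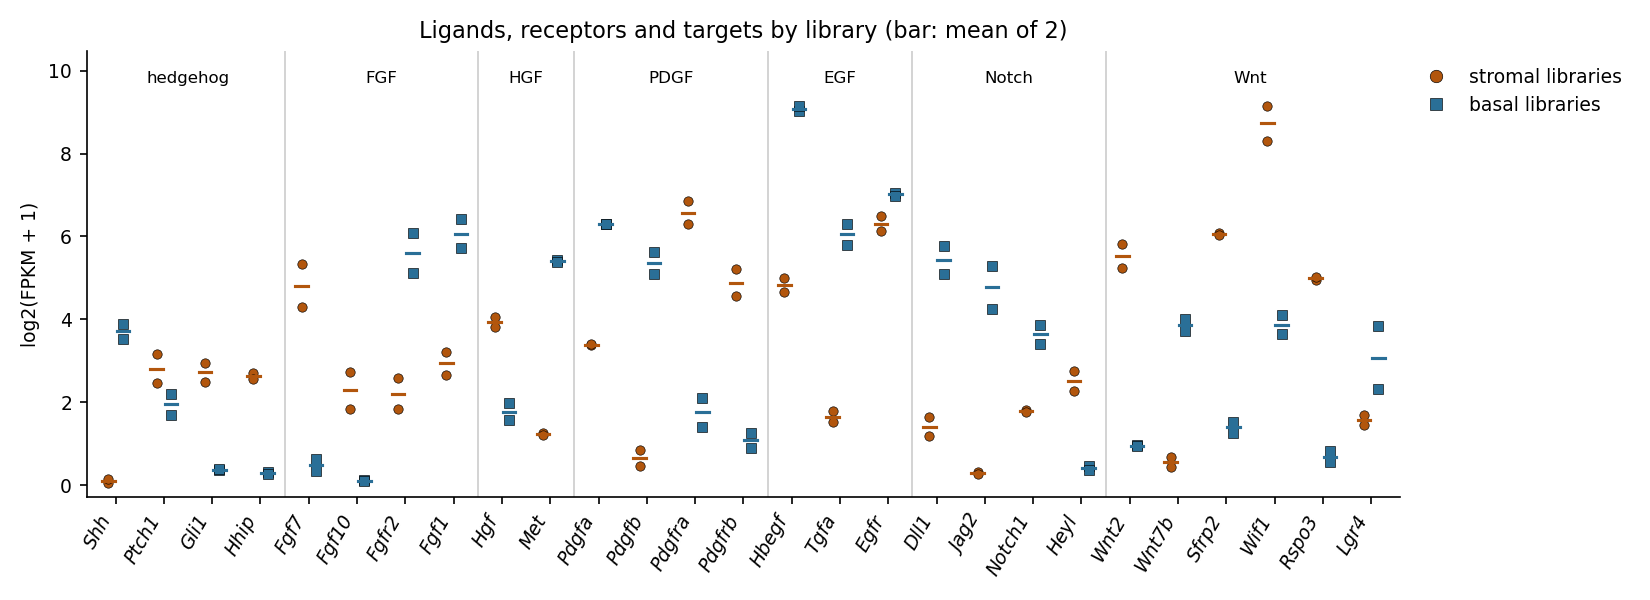
Levels of ligands, receptors and targets in each stromal library (circles) and basal library (squares), as log2(FPKM + 1), with bars at the mean of 2 libraries. Shh, Pdgfb, Met and Fgfr2 lie higher in both basal libraries, and Gli1, Pdgfrb, Hgf and Fgf7 lie higher in both stromal libraries.

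Of 28 chemokines and cytokines tested 16 were higher in stroma and 4 lower, with a median of 2.76 (8 to 11 and 3 to 4 with 1 library left out). Il6, the interleukin of the acute-phase response, measured 1904 and 1349 FPKM in stromal and 92.0 and 71.4 FPKM in basal libraries (4.29 ± 0.63, adjusted p = 0.00205). Cxcl1, a neutrophil chemokine, measured 5668 and 3291 FPKM against 323 and 206 FPKM (4.06 ± 0.96, adjusted p = 0.0148), and its call was lost when any 1 library was left out (up to 0.0989). Both RNAs were therefore also present in basal libraries. Ccl11, the eosinophil chemokine eotaxin, measured 406 and 384 FPKM against 3.21 and 8.12 FPKM, and Cxcl13, which attracts B cells, 195 and 64.4 FPKM against 0.176 and 0.232 FPKM. Csf3, a granulocyte growth factor, did not separate the groups, at 84.6 and 94.5 FPKM in stromal and 83.3 and 93.5 FPKM in basal libraries.

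The 4 mediators that were lower in stroma were Ccl20, Cxcl16, Cx3cl1 and Il1a. Ccl20, an epithelial chemokine, measured 35.9 and 30.3 FPKM in basal and 0.754 and 0.384 FPKM in stromal libraries (-4.45 ± 0.52, adjusted p = 0.000825), and Il1a, an alarm cytokine of epithelia, 3.97 and 11.6 FPKM against 0.257 and 0.332 FPKM. Cx3cl1 lost its call without stromal library 1, without either basal library and in the fit of the 4 libraries alone (adjusted p from 0.0279 to as much as 0.163). Of 13 complement genes 9 were higher in stroma and none lower (7 to 8). C1s1 and C1ra, proteases that start the classical pathway, measured 333 and 280.0 FPKM and 130.0 and 129.9 FPKM in stromal libraries against at most 6.65 FPKM in basal ones, and Serping1, their inhibitor, 1559 and 1515 FPKM against 18.9 and 28.7 FPKM.

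Of the hyaluronan synthases, Has1 and Has2 were higher in stroma and Has3 was lower. Has1 and Has2 measured 583 and 272 FPKM and 77.8 and 28.2 FPKM in stromal libraries, against 8.66 and 6.44 FPKM and 0.592 and 1.13 FPKM in basal ones (5.56 ± 1.02 and 4.70 ± 0.81). Has3 was at 0.194 and 0.132 FPKM in stromal and 6.17 and 5.82 FPKM in basal libraries (-2.59 ± 0.21, adjusted p = 0.000166). Ugdh, which makes the glucuronic acid donor, measured 2149 and 1934 FPKM against 40.5 and 42.5 FPKM, and Gfpt2, which opens the hexosamine pathway, 2569 and 1087 FPKM against 11.5 and 12.8 FPKM. Tnfaip6, which links proteins to hyaluronan, was at 1341 and 198 FPKM in stromal and 4.69 and 3.27 FPKM in basal libraries. The hyaluronidases Hyal1 and Hyal2 were at 69.5 and 49.4 FPKM and at 56.6 and 58.7 FPKM in basal libraries, against at most 4.57 FPKM in stroma. In this list 6 of 13 genes were higher in stroma and 3 lower (5 to 6 and 3).

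Ptgis, prostacyclin synthase, measured 60.9 and 119 FPKM in stromal and 0.463 and 1.68 FPKM in basal libraries (5.44 ± 0.92, adjusted p = 0.00354). Slco2a1, a prostaglandin transporter, was lower in stroma, at 40.9 and 27.0 FPKM against 155 and 151 FPKM. Ptgs2, the inducible cyclooxygenase, was at 1670 and 1268 FPKM against 135 and 234 FPKM, a difference of 3.02 ± 1.01 that did not pass the test (adjusted p = 0.0572) but did with the 4 libraries fitted alone or without Sca-1+ luminal library 3 (as low as 0.00229). Of 14 prostaglandin genes 4 were higher in stroma and 4 lower (2 and 1 to 2). Of 10 steroid receptor and enzyme genes 3 were higher and 1 lower (1 to 2 and 0 to 1). Srd5a2, which converts testosterone to dihydrotestosterone, measured 68.9 and 87.4 FPKM in stromal and 1.60 and 2.53 FPKM in basal libraries (4.70 ± 0.80, adjusted p = 0.00354). Of 12 retinoid genes 4 were higher in stroma and none lower (3 to 4), among them Rdh10 and Aldh1a2, successive enzymes of retinoic acid synthesis, at 74.8 and 158 FPKM and 13.5 and 13.2 FPKM against 17.7 and 11.5 FPKM and 0.429 and 0.517 FPKM.

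A few genes differed more in transcript form than in total. Forms were examined in a list of 12 genes, to which Slk and Lama3 were added. No transcript of Fgfr1, Fgfr3, Fn1, Scrib or Arhgef11 was called by limma. Cd44 (chr2:102811142-102901665), the hyaluronan receptor, totalled 144 and 124 FPKM in stromal and 62.3 and 74.9 FPKM in basal libraries and was not called as a gene (adjusted p = 0.267), except with the 4 libraries fitted alone (0.0335). All of the stromal signal was given to the 4408-nt transcript without variable exons, which held 16% and 13.4% of the basal signal (9.97 and 10.1 FPKM, adjusted p = 0.211). Transcripts with variable exons summed to 52.4 and 64.8 FPKM in basal libraries and were listed at 0 in both stromal ones. The 4705-nt transcript, which carries 297 nt of variable exons, was at 10.4 and 12.7 FPKM in basal libraries and called (adjusted p = 0.00185) in every fit run. The 5284-nt transcript, with 876 nt of variable exons, was at 17.3 and 18.8 FPKM and called at 0.0473, a call lost with a pseudocount of 0.1 and when any 1 library was left out (up to 0.192). The 5053-nt and 4807-nt transcripts, also with variable exons, were not called (limma adjusted p = 0.109 and 0.0607). Both were called only with the 4 libraries fitted alone.

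Slk (chr19:47580019-47645246), a serine/threonine kinase that was singled out after its values were seen, differed by 1 exon of 93 nt at chr19:47627648-47627740, shown here in capitals between 15 bases of each neighbouring exon (plus strand, GENCODE M21, mm10).
Slk 93 nt: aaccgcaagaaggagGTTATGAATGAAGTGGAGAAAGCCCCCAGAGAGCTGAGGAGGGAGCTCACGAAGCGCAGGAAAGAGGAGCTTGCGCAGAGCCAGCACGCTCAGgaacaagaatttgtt
The 7030-nt transcript with the exon was listed at 0 in both stromal libraries and measured 19.7 and 23.1 FPKM in basal ones (-4.48 ± 0.67, adjusted p = 0.00444). The 6937-nt transcript without it was at 20.8 and 20.4 FPKM in stromal and 10.3 and 17.0 FPKM in basal libraries (adjusted p = 0.509). The gene total, 20.8 and 20.4 against 30.0 and 40.2 FPKM, was not called.

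Other forms concerned genes of the basal anchor. Dst, a cytoskeletal linker with an epithelial form in hemidesmosomes, had an 8787-nt transcript at chr1:34160330-34183903 that measured 86.9 and 45.6 FPKM in basal libraries and was listed at 0 in stromal ones (-6.00 ± 0.64, adjusted p = 0.00123). Its 17210-nt transcript was at 3.06 and 2.53 FPKM in stromal and 8.79 and 6.62 FPKM in basal libraries and was not called. For Trp63, all FPKM of the 4 libraries was given to transcripts from the downstream start, which encode the form without the full transactivation domain, and the 4 transcripts from the upstream start were listed at 0 in each. Lama3 was measured almost wholly as its 2 short transcripts of 5550 and 3242 nt, at 46.4 and 34.5 FPKM and at 21.7 and 15.8 FPKM in basal libraries.

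**Figure D5:**
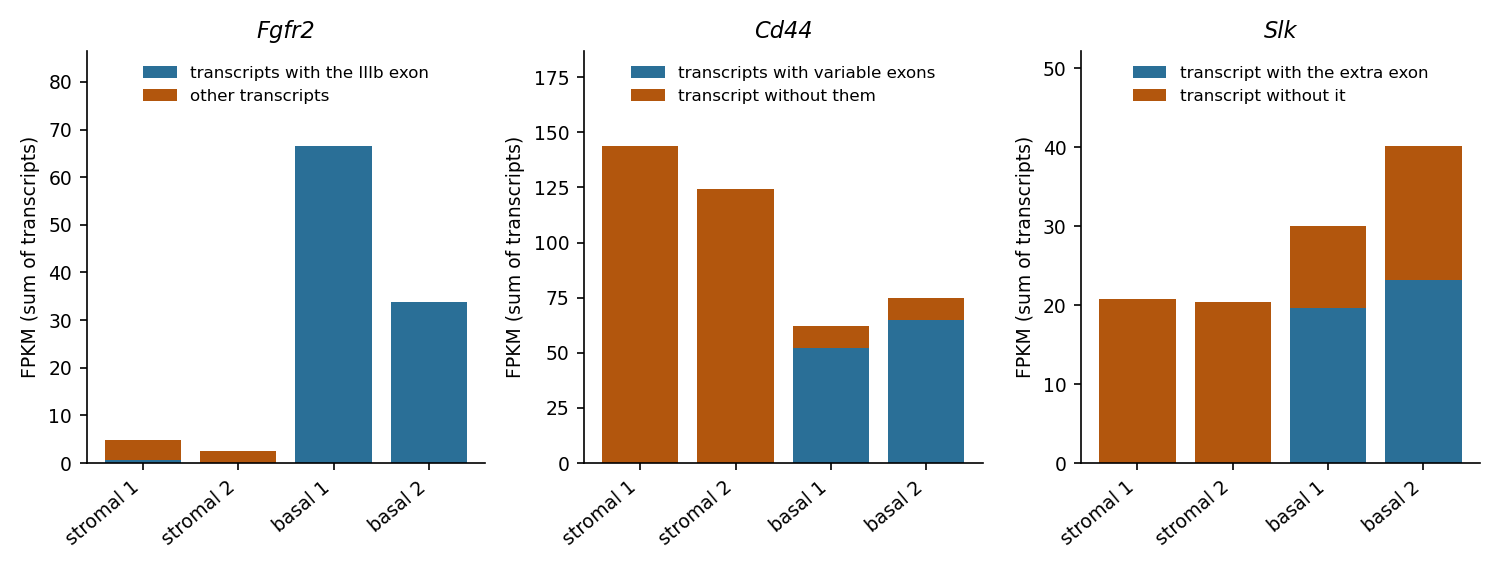
FPKM of the transcript forms of Fgfr2, Cd44 and Slk, stacked for each stromal and basal library. Forms with Fgfr2 exon IIIb, Cd44 variable exons or the 93-nt Slk exon make up most of the basal bars and 0 or little of the stromal ones.

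Of 10 smooth muscle genes 2 were higher in stroma, Des and Synpo2, and 1 lower, Tpm2, and all 3 lost their calls in at least 3 of the 4 fits that left out a library (0 to 1 higher and 0 lower remained, with adjusted p up to 0.213, 0.0771 and 0.175). The shares over all genes tested were 13.4% higher and 9.12% lower. Acta2, smooth muscle actin, was at 44.5 and 76.0 FPKM in stromal and 26.9 and 49.4 FPKM in basal libraries. Myh11, smooth muscle myosin, was at 5.12 and 5.93 against 3.63 and 5.94 FPKM, and both genes overlapped. None of 11 endothelial and none of 7 leukocyte genes tested was called by limma, with 2 and 0 respectively at an unadjusted p below 0.05, and up to 2 endothelial genes called under other settings. Pecam1 was between 1.33 and 2.17 FPKM and Ptprc at or below 0.145 FPKM in all 4 libraries. Of 5 pericyte genes 3 were higher in stroma (0 to 1 with 1 library left out). Of 8 glial and nerve genes 4 were lower in stroma (2 to 3), led by Mbp, a myelin protein, at 1.02 and 1.99 FPKM against 36.0 and 39.6 FPKM. Summed FPKM of the whole glial and nerve list was 5.65 and 7.35 in stromal and 60.7 and 55.1 in basal libraries. Mbp alone gave most of the basal sums, and the luminal libraries lay between 18.5 and 40.7. Of 3 mesothelial genes 1 was higher in stroma (1), Wt1, a factor also found in other mesenchymal cells, at 17.9 and 14.8 FPKM against 0.102 and 0.369 FPKM, while the marker Msln was below 0.5 FPKM in all 4 libraries. None of 5 urothelial and none of 5 erythroid genes was called by limma, nor had any an unadjusted p below 0.05. Of 11 secretory genes of luminal cells 1, Cd24a, was lower in stroma (0 with 1 library left out) and 2 had an unadjusted p below 0.05. Among those not called was Pbsn (probasin), at 349 and 1262 FPKM in stromal and 386 and 787 FPKM in basal libraries.

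Of 17 immediate early genes 2 were higher in stroma, Fos and Dusp1, and 2 lower, Jun and Atf3 (0 to 1 and 0 to 2 with 1 library left out). Each of the 4 lost its call in 2 or more of those fits (adjusted p up to 0.308), and Egr1 ranged from 275 to 1046 FPKM between the basal libraries alone. Both immediate early counts were near the shares of all genes tested, 13.4% higher and 9.12% lower. Of 12 cell cycle genes 1 was lower in stroma, also near that share. It was Ccnd1 (cyclin D1), at 7.19 and 11.5 FPKM against 54.8 and 116 FPKM (-3.00 ± 0.52, limma adjusted p = 0.00396). Mki67, a marker of dividing cells, was below 0.3 FPKM in all 4 libraries. Guidance genes were divided, with 4 of 22 higher and 8 lower in stroma (2 and 4 to 7). Ntn4 and Ntn1, netrins, were higher in stroma by 3.05 ± 0.34 and 3.13 ± 0.56, and Epha2 and Ephb3, ephrin receptors, were lower by 3.18 ± 0.53 and 2.58 ± 0.34 on the log2 scale.

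The luminal libraries place these differences. The 1132 genes lower in stroma than in basal cells had a median level of 2.71 FPKM in stromal and 17.4 FPKM in basal libraries, and one of 8.22 FPKM where Sca-1 was negative and 11.4 FPKM where it was positive among luminal libraries. The 1663 genes higher in stroma had a median of 13.6 FPKM there and 1.43 FPKM in basal libraries, with 1.73 FPKM in the luminal group negative for Sca-1 and 8.16 FPKM in the positive one. Fibroblast markers summed to 15062, 6093 and 1142 FPKM in the 3 luminal libraries positive for Sca-1, which therefore span a wide range, and to between 163 and 287 FPKM in luminal libraries negative for Sca-1.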

How the data were processed

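RNA of sorted cells was turned into cDNA with random and poly d(T) priming and sequenced on a HiSeq, per the labels' protocols; strand is not stated. The submitters' processing notes name bcl2fastq 1.8.3, TopHat, Cufflinks and build mm10, and no version of the aligner or assembler was given in the sources used here. The authors deposited FPKM for 63241 transcripts per library. The deposited coverage signal was not used in tests. Transcripts were matched to GENCODE M21 and RefSeq genes by position (51225 named, 81.0%), those under 300 nt were left out, and FPKM was summed per gene (24499 genes; 7 with an estimate not made were left out). Testing used limma 3.58.1 (R 4.3.3) for genes that reached 1 FPKM in 2 or more of the 10 libraries, as log2(FPKM + 1), with 4 groups in 1 fit and Benjamini-Hochberg adjustment over all genes. A pseudocount understates the change of low genes. FPKM gives no counts, so depth was estimated, with 87.7% to 92.0% of low values within 0.05 of a whole fragment number. The labels number no replicates, so libraries are numbered in listed order. Exact zeros can be failed splits. Over all 10 libraries 479 genes were at 0 in one library yet reached 5 FPKM elsewhere, a count that includes differences between cell types. Within the stromal or the basal group, 49 genes were at 0 in one library and at 5 FPKM or more in the other. Genes and transcripts at 0 in both libraries of a group are described as listed at 0, and a 0 in 1 library is given as deposited. Named genes were the cell type and sorting markers, and the 12 largest called differences per direction at a mean of 20 FPKM or more. For each list up to 4 called genes per direction, exceptions, and members whose omission would mislead were also named. The genes and lists were chosen with earlier results of these data known. A few features that the rule selects are not reported here. Scripts were tested on simulated data. Alternatives were another pseudocount, 2 filters, 2 scalings, 2 sample sets, all transcript lengths and leaving out each library.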

Additional observations from a re-analysis of the deposited data

How the results depend on the processing

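With 1 of the 4 libraries left out, genes called higher in stroma numbered 584 to 910 (1663 with all 4) and genes called lower 537 to 675 (1132), and transcripts called higher 263 to 575 (1522) and lower 391 to 588 (1160). The lone library of a group was then assumed to vary like the other groups. Between 1151 and 1437 calls were shared with the fit of all libraries, and 0 had the opposite direction. Under the other settings the gene counts ranged from 1223 to 2161 higher and from 971 to 1399 lower; the lowest came with a filter at 5 FPKM, which tests fewer genes, and the highest without Sca-1+ luminal library 3. Of 315 called genes that are named or listed, 271 kept their call in every alternative with all 4 libraries and 171 in every alternative, and 0 reversed. Of the 24 largest differences 23 kept their call throughout, the exception being Krt17. These 24 were picked from the same data as the called genes of largest difference, so their count is not an independent check. No paired analysis was possible because the labels carry no replicate numbers. With 2 libraries a group, a difference that missed the threshold is not shown to be absent.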

Other observations

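Genes of the interferon-inducible Ifi200 cluster, chosen after their values were seen, were among the largest stromal excesses. Ifi205 measured 1078 and 281 FPKM in stromal and 2.05 and 2.71 FPKM in basal libraries (log2 difference 7.36 ± 1.09, limma adjusted p = 0.00208). Ifi211, Ifi204, Mndal and Ifi203 measured 288 and 92.6 FPKM, 174 and 58.6 FPKM, 146 and 63.1 FPKM, and 144 and 54.6 FPKM in stromal libraries, against at most 1.57 FPKM in basal ones, with log2 differences of 6.29, 5.97, 5.54 and 5.33. Stromal library 1 had over 2 times the level of library 2 for each of them, and all 5 kept their calls in every alternative. These genes are close copies of one another, and how the authors' counting divides reads between them is not known.

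Cornified envelope precursors, also chosen after their values were seen, ran the other way. Sprr1a measured 5190.4 and 6979 FPKM in basal and 75.1 and 243 FPKM in stromal libraries (-5.46 ± 1.16, adjusted p = 0.00948), a call lost without stromal library 1 and without either basal library (up to 0.0782). Sprr2h measured 207 and 206 FPKM against 1.35 and 2.46 FPKM and kept its call, whereas Sprr2a3, at 77.8 and 67.8 FPKM against 1.41 and 6.77 FPKM, lost it in the same 3 fits (up to 0.136). The Sprr2 genes are near-identical, so their split is uncertain.

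Penk, which encodes proenkephalin, measured 3751 and 4611 FPKM in stromal and 37.0 and 77.8 FPKM in basal libraries (6.25 ± 1.04, adjusted p = 0.00339), and Mgp, the matrix Gla protein, 2319 and 4926 FPKM against 49.0 and 95.8 FPKM (5.60 ± 0.71, adjusted p = 0.00119). Plet1, a surface protein of epithelial progenitors, measured 1523 and 1999 FPKM in basal and 22.2 and 55.7 FPKM in stromal libraries. Fermt1, which activates integrins in epithelia, measured 54.3 and 59.8 FPKM against 0.446 and 0.163 FPKM. All 4 were chosen after their values were seen and kept their calls in every alternative.

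A few genes were listed at 0 in both libraries of one group. Plpp1 was at 51.9 and 39.4 FPKM in stromal libraries and listed at 0 in basal ones. Cap1 was at 38.3 and 47.0 FPKM and Commd1 at 44.1 and 35.8 FPKM in basal libraries and listed at 0 in stromal ones. Both Cap1 and Commd1 are broadly expressed genes, and their calls were lost when any 1 library was left out (adjusted p up to 0.0744 and 0.169). No fold is given for them.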
